A study of Arabidopsis thaliana with 34 samples.

Results

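The nuclear genes that encode subunits of the photosynthetic electron transport chain were followed through an RNA-seq study of *Arabidopsis thaliana* lines that carry large deletions. The set holds 33 of the 27538 genes in the expression tables, taken by locus, and no light-harvesting protein is among them. It consists of 12 subunits of photosystem I, 11 subunits of photosystem II, 7 electron carriers or their regulators and 3 subunits of the chloroplast ATP synthase. All 33 genes passed the filter on low counts in both experiments, and the lowest count of any of them in any library was 1970.

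Photosystem II takes electrons from water, and the cytochrome b6f complex and the copper protein plastocyanin pass them on to photosystem I. Photosystem I reduces ferredoxin, from which ferredoxin-NADP reductase makes NADPH, while the proton gradient across the thylakoid drives the ATP synthase. The reaction centre cores are encoded in the plastid genome, whereas the genes described here are nuclear and are translated in the cytosol. They supply other photosystem subunits, electron carriers or their regulators, and subunits of the ATP synthase. Many of these genes are known for light-induced transcription in green tissue, and several subunits come from pairs of gene copies.

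The time-of-day experiment compared Col-0, the wild type and the ecotype of the deletion lines, with pAP141 and pAP142, each homozygous for its deletion. Each of its 19 samples was a pool of whole seedlings grown on plates under long days for about 2 weeks. Collection took place in the evening, called t1, or in the morning, called t2. There were 4 Col-0 samples at t1 and 3 at t2, 4 pAP141 samples at t1 and 2 at t2, and 3 pAP142 samples at each time. The pAP146 experiment had 15 samples: leaves of single plants from Col-0 (4), from siblings without the deletion (4) and from heterozygous plants (3), and whole seedlings of the developmentally delayed homozygous plants (4). Genotype and tissue cannot be told apart in the homozygous samples, and the time of day of that collection was not given in the sources used here. Every deletion was made with SaCas9 driven by an egg-cell promoter and is represented here by a single line, so a line and its deletion cannot be told apart either. The paper reports more divergence from the Col-0 genome in pAP142 lines than in the other lines. It names differences among Col-0 sublines or effects of transformation as possible reasons. It also describes pAP142 plants as smaller and pale green, with serrated leaves. The part of either in the values of the set was not tested.

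Total estimated counts per sample lay between 26640541 and 43851997, of which the 33 genes took 2.64% to 10%. The labels were checked on genes outside the set. TET3, inside the pAP141 deletion, was at 0 TPM (transcript abundance scaled by length and library depth) in all pAP141 samples. AT5G28060, inside the pAP142 deletion, reached at most 0.183 TPM in pAP142. JAZ11, inside the pAP146 deletion, was at 0 TPM in homozygous pAP146. The morning clock gene CCA1 had a mean of 0.40 TPM at t1 and 96.5 TPM at t2 in Col-0. Call counts in pAP141 turned on single libraries. Without pAP141 t1 replicate 3 the number of genes called against Col-0 went from 16 to 2418. At t2 pAP141 has only 2 libraries, which differed from each other, with TMM factors (edgeR's scaling of library totals) of 0.743 in replicate 1 and 0.908 in replicate 2 against 0.898 to 0.979 in the other t2 samples. The count against Col-0 at t2 went from 21 to 2472 without replicate 2 and to 10 without replicate 1. Leaving out either one leaves that group with 1 library, which the fit assumes to vary like the other groups. Nothing in the labels says that the samples of a group were grown separately, so p-values measure only the spread between these samples.

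Most genes of the set belong to the most abundant transcripts of the seedling. By mean TPM in Col-0 seedlings at t1 they ranked from 12 to 285 among all genes. The exceptions were PGR5 at rank 687, PSAD-2 at 1306 and PETE1 at 1501. Because TPM is scaled by coding length, levels of different genes can be set side by side. In Col-0 seedlings at t1 the highest was PSBR (AT1G79040), a small lumenal subunit of photosystem II, at 5981 ± 547 TPM (mean ± SD, n = 4), which ranked 12 among all genes. It was followed by PETE2 (AT1G20340), the major plastocyanin, at 4020.1 ± 267 TPM, PSBX (AT2G06520), a small membrane subunit of photosystem II, at 3588 ± 321 TPM, the leaf ferredoxin FD2 (AT1G60950) at 2717 ± 259 TPM, and PSBW (AT2G30570), another small photosystem II subunit, at 2249.8 ± 107 TPM. At the lower end stood PSBO2 (AT3G50820), a copy of the lumenal protein that stabilises the manganese cluster, at 579 ± 56.9 TPM, ATPC1 (AT4G04640), the gamma subunit of the ATP synthase, at 545 ± 28.7 TPM, PGR5 (AT2G05620), which is required for cyclic electron flow, at 243 ± 14.5 TPM, PSAD-2 (AT1G03130), a copy of the ferredoxin-docking subunit of photosystem I, at 123 ± 16.4 TPM, and PETE1 (AT1G76100), the minor plastocyanin, at 105 ± 15.6 TPM. In this order the ranges of PETE2 and PSBX, of PSBO2 and ATPC1, and of PSAD-2 and PETE1 overlapped. Within each sample, PETE2 stood above PSBX and PSAD-2 above PETE1. PSBO2 stood above ATPC1 except in replicate 4, at 528.5 and 529.2 TPM. PSBR stood clear of PETE2, and ATPC1, PGR5 and PSAD-2 stood clear of each other. By mean the other 23 genes lay between, from 588 ± 65.7 TPM for PSAH-2 (AT1G52230) to 2104 ± 299 TPM for PSBTN (AT3G21055). In single samples some crossed into the named genes. In replicate 1 PSBTN stood at 2421 TPM and PSBW at 2383 TPM. In replicate 4 PSAH-2 stood at 515 TPM, below ATPC1.

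The summed level differed between times and tissues. The 33 genes together held 44915 to 53566 TPM in the 4 Col-0 samples at t1 and 72846 to 83785 TPM in the 3 at t2. In pAP141 they held 51997 to 55213 TPM at t1, and 101895 and 79475 TPM in replicates 1 and 2 at t2. In pAP142 they held 46615, 36959 and 37434 TPM at t1 and 71133 to 71674 TPM at t2. In each line all morning samples lay above all evening samples. Leaves were higher throughout, at 124012 to 139636 TPM in Col-0, 120984 to 138357 TPM in siblings and 119043 to 126540.3 TPM in heterozygous plants, and homozygous pAP146 seedlings held 46718 to 66928 TPM. Leaves and plate-grown seedlings came from different experiments, and no test was made across them.

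**Figure D1:**
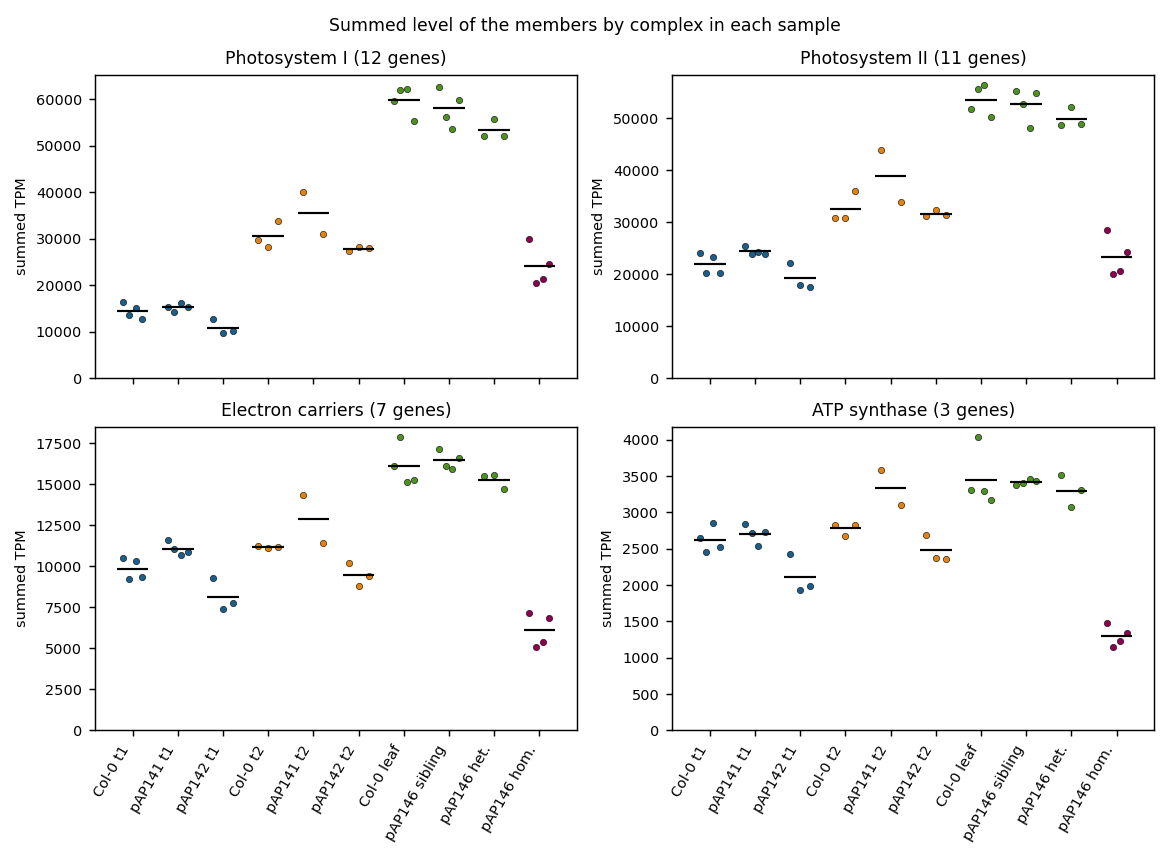
Summed TPM of the members of each complex (vertical axes) in each of the 34 samples, by group; points are samples and bars are group means. Photosystem I held 12734 to 16287 TPM in Col-0 at t1 and 28281 to 33864 TPM at t2, while the ATP synthase genes held 2458 to 2852 TPM at t1 and 2682 to 2832 TPM at t2.

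The balance between the complexes moved with time of day. Photosystem I subunits made up 29.4% ± 0.887 of the member total in Col-0 at t1 (SD, n = 4) and 39.7% ± 0.802 at t2 (SD, n = 3), against 45.0% in Col-0 leaves and 43.8% in homozygous pAP146. The carriers went the other way, from 20.2% at t1 to 14.5% at t2, with 12.1% in leaves and 11.2% in homozygous seedlings. Photosystem II subunits held 45.0% at t1, 42.2% at t2, 40.3% in leaves and 42.6% in homozygous seedlings. These shares are a description, with no test.

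Upstream sequence is shown for 6 of the 7 gene pairs, whose copies can be set side by side, together with short motifs bound by light and clock regulators in plants. The 250 bases upstream of each gene start were searched on both strands of the TAIR10.1 assembly of RefSeq for 5 motifs, of which the G-box (CACGTG) and the I-box (GATAAG) occur in many light-regulated plant promoters. Where another gene reaches into the window, only the stretch free of it is printed. Sequences run 5′ to 3′ along the strand of the gene, with motif matches in capitals. The pairs are PSAD-1 (AT4G02770) and PSAD-2, PSAE-1 (AT4G28750) and PSAE-2 (AT2G20260), stromal subunits beside PSAD, PSAH-1 (AT3G16140) and PSAH-2, copies of a subunit at the docking side for mobile antenna, PSBQ-1 (AT4G21280) and PSBQ-2 (AT4G05180), copies of a lumenal subunit of the oxygen-evolving complex, PETE1 and PETE2, and FNR1 (AT5G66190) and FNR2 (AT1G20020), the leaf ferredoxin-NADP reductases. The windows of PSAD-2 and PSAE-1 lie within other genes up to the start, so none is printed.
PSAD-1, chr4:1230165-1230414, minus strand: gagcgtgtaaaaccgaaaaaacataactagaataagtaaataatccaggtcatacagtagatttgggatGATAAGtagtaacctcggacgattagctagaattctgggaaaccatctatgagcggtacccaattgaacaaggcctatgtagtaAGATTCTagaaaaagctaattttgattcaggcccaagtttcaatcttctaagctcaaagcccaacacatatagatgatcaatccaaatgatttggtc
PSAE-2, chr2:8736598-8736733, plus strand: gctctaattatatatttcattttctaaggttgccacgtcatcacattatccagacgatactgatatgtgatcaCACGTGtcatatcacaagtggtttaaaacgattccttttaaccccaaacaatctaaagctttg
PSAH-1, chr3:5469595-5469844, minus strand: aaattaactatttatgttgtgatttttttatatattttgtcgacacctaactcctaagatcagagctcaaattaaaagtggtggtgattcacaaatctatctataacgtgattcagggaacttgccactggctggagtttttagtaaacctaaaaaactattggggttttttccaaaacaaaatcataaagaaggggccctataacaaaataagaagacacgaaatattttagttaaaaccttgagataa
PSAH-2, chr1:19454766-19454797, plus strand: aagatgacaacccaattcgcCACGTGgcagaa
PSBQ-1, chr4:11334169-11334351, plus strand: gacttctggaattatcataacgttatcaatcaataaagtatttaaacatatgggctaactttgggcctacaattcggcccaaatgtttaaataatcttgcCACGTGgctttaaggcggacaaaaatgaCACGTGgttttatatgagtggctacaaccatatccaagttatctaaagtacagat
PSBQ-2, chr4:2673244-2673493, minus strand: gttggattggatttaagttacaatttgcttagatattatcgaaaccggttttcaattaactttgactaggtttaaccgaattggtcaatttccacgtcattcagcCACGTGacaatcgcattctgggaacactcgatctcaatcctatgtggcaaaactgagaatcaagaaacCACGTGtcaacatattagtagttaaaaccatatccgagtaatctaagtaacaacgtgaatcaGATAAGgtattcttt
PETE1, chr1:28554931-28555033, minus strand: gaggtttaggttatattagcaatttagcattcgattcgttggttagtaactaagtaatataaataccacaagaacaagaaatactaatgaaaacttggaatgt
PETE2, chr1:7043393-7043627, minus strand: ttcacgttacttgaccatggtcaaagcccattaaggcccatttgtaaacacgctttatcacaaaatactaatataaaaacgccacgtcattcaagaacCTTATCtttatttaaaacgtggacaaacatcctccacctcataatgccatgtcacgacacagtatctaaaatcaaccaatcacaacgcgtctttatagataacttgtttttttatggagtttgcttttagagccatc
FNR1, chr5:26453200-26453275, minus strand: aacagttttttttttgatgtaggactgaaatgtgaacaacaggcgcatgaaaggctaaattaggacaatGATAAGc
FNR2, chr1:6942375-6942624, plus strand: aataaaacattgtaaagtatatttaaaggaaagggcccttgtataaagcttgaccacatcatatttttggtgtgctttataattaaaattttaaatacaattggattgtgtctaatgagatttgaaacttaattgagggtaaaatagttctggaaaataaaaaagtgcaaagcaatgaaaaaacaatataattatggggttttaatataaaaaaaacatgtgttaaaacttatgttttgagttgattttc

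The stretch of PSAD-1 holds an I-box and the GLK-site letters AGATTCT, that of PSAE-2, whose level did not pass the test in Col-0 between evening and morning, a G-box, that of PSAH-2 a G-box close to its start, that of PSBQ-1 a pair of G-boxes, that of PSBQ-2 a pair of G-boxes and an I-box, and those of PETE2 and FNR1 an I-box. The windows of PSAD-2, PSAE-1, PSAH-1, PETE1 and FNR2 hold none of the 5 motifs. Over all 33 genes the G-box was found for 6, PSAE-2, PSAH-2, PSBQ-1, PSBQ-2, PSBTN and ATPD (AT4G09650), against 6.49% of the 27443 genes searched. The I-box was found for 9, PSAD-1, PSAF (AT1G31330), PSAH-2, PSAK (AT1G30380), PSBQ-2, PETC (AT4G03280), PETE2, FNR1 and PDE334 (AT4G32260), against 12.3% of all genes. The GLK-site letters were found for 3, PSAD-1, PSAE-2 and PSBP-1 (AT1G06680), against 6.22% of all genes. The CCA1-site letters AAAAATCT were found for 2, PSAN (AT5G64040) and PSAO (AT1G08380), against 6.69% of all genes, and the evening element AAAATATCT for ATPC1 alone, against 2.36% of all genes. A match describes the letters in the window only. The counts and the shares of all genes are over whole windows, with the parts that other genes reach into. Outside the stretch free of other genes lie the GLK-site letters of PSAE-2 and PSBP-1 and the G-box of ATPD. The same holds for the I-box and the farther G-box of PSAH-2. Reads can tell the copies of each pair apart: the coding sequences of PSAD-1 and PSAD-2 shared 5 stretches of 31 bases, those of PSBO1 (AT5G66570) and PSBO2 shared 2, those of PSBQ-1 and PSBQ-2 shared 1, and the PSAE, PSAH, PETE and FNR pairs shared 0.

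The comparison of morning with evening asks how the set follows the day in seedlings. In Col-0, 24 of the 33 genes rose and 1 fell at t2 against t1, where 14.0% of the 21356 genes tested rose and 16.6% fell. The median log2 fold change was 0.97 over the 33 genes and -0.01 over all genes tested. By complex, 11 of 12 photosystem I genes rose (median log2 fold change 1.35), as did 9 of 11 photosystem II genes (0.95), 3 of 7 carriers, with 1 that fell (0.46), and 1 of 3 ATP synthase genes (0.21). A gene was called where edgeR's quasi-likelihood test gave a Benjamini-Hochberg adjusted p under 0.05 over all genes.

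PSAD-2 showed the largest rise of the set. Its samples stood at 141, 133, 116 and 104 TPM at t1 and at 997, 904 and 1009 TPM at t2. The groups are far apart, and the log2 fold change was 3.17 ± 0.22 (SE), 8.97-fold (edgeR adjusted p = 5.65e-09). Its partner PSAD-1 started from a higher level, at 1046, 1041, 889.9 and 949 TPM, and reached 2323, 2106 and 2333 TPM, a log2 fold change of 1.39 ± 0.15 (edgeR adjusted p = 1.11e-06). The samples of neither gene overlap between the times.

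PSAH-2 went from 655, 551, 629.6 and 515 TPM to 2071, 1848 and 2229.9 TPM, a log2 fold change of 1.99 ± 0.19 (edgeR adjusted p = 2.28e-07). PSAH-1 was the more abundant copy in every evening sample, at 775 to 909 TPM, and the less abundant in every morning sample, at 1367 to 1764 TPM (log2 fold change 1.09 ± 0.17). PSAF, which docks plastocyanin on the lumenal side, stood at 1721, 1533, 1701 and 1382 TPM and then at 3455, 3233 and 3635 TPM (log2 fold change 1.31 ± 0.15, edgeR adjusted p = 2.88e-06). The morning samples of all 3 genes lay above the evening samples. The other photosystem I genes that rose were PSAE-1, a stromal subunit beside PSAD (1.39), PSAG (AT1G55670) and PSAK, which bind antenna (0.83 and 1.26), PSAL (AT4G12800) and PSAO, near PSAH (1.02 and 1.46), and PSAN, on the lumenal side (1.39), all as log2 fold changes. PSAE-2, the partner of PSAE-1, did not pass, at 771 to 973 TPM in the evening and 713 to 945 TPM in the morning.

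In photosystem II the median change was smaller. PSBS (AT1G44575), the sensor of lumen pH in the dissipation of excess light, stood at 888, 814, 874 and 830.1 TPM at t1 and 1551, 1510.1 and 1359 TPM at t2 (log2 fold change 0.97 ± 0.13, edgeR adjusted p = 1.15e-05). All morning samples of PSBS lie above all evening samples. The extrinsic proteins of the oxygen-evolving complex rose by 0.91 (PSBO1), 1.17 (PSBO2), 1.0 (PSBP-1), 0.52 (PSBQ-1) and 1.08 (PSBQ-2) on the log2 scale, and the small subunits PSBW, PSBX and PSBY (AT1G67740) by 0.95, 0.65 and 1.05. PSBR (0.53 ± 0.20, edgeR adjusted p = 0.0518) and PSBTN (0.47 ± 0.20, edgeR adjusted p = 0.0793) did not pass.

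The carriers did not move as a block. FNR2 fell, from 723, 708, 728 and 728 TPM in the evening to 222, 219 and 216 TPM in the morning, a log2 fold change of -1.53 ± 0.15, 2.89-fold lower (edgeR adjusted p = 2.67e-07). Its samples were tight within each time and wide apart between them. FNR1, its partner, was at 666, 621, 696 and 617 TPM at t1 and 468, 451 and 434 TPM at t2. These values do not overlap, but the log2 fold change of -0.34 ± 0.13 did not pass (edgeR adjusted p = 0.0622). It passed in 4 of the other settings tried.

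PETE1 rose from 119.8, 100.4, 115 and 84.9 TPM to 274, 278 and 303 TPM (1.63 ± 0.16, edgeR adjusted p = 3.73e-07). PETE2 stood at 3785 to 4316 TPM in the evening and 4817 to 4910.3 TPM in the morning and did not pass (0.46 ± 0.18, edgeR adjusted p = 0.0558). PGR5 rose from 258, 234, 253 and 228 TPM to 627, 617 and 715 TPM (1.62 ± 0.20, edgeR adjusted p = 5.34e-06). None of these 3 genes overlapped between the times. FD2 rose by 0.49 on the log2 scale, while PETC, the Rieske iron-sulphur protein of the cytochrome complex, had a log2 fold change of 0.11 and was not called. Of the ATP synthase genes only ATPD, the delta subunit, rose (0.71), and ATPC1 (0.21) and PDE334, a subunit of the membrane sector (-0.01), did not pass.

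By TPM alone, 26 of the 33 genes were higher in every Col-0 morning sample than in every evening sample, where this held for 10.3% of the genes tested.

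**Figure D2:**
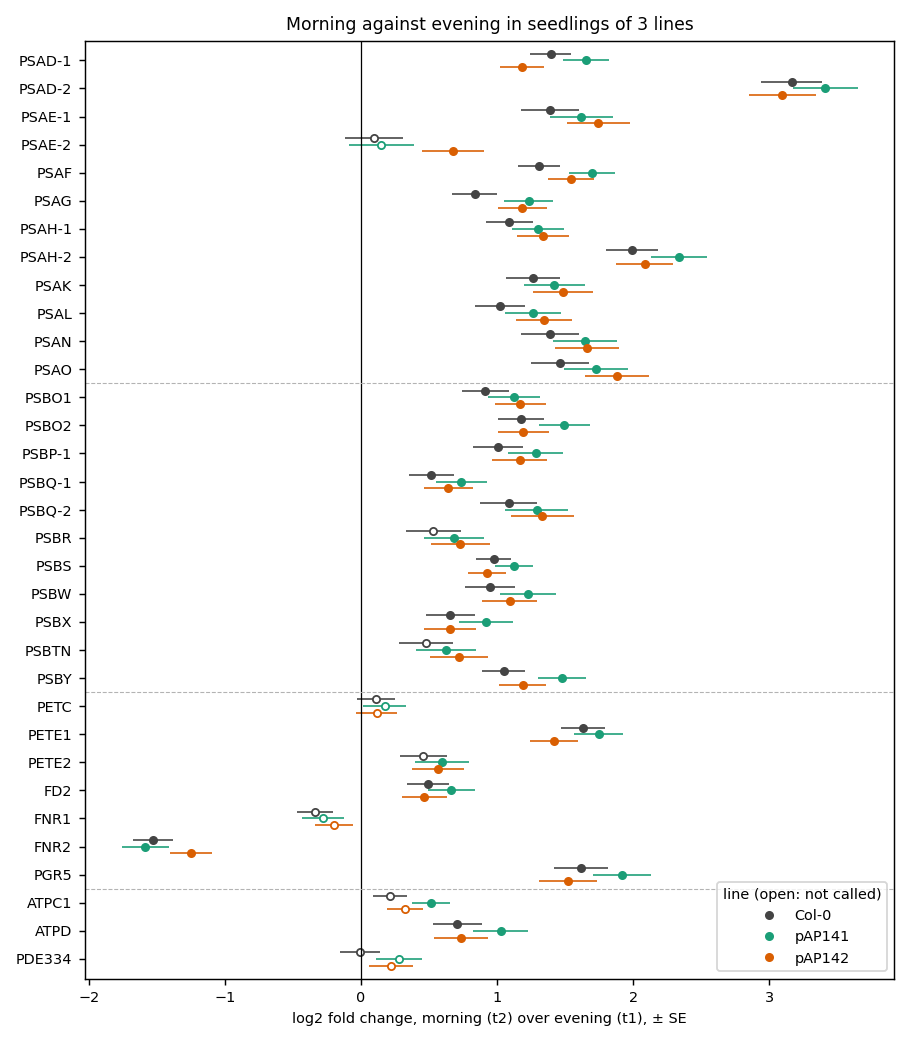
Log2 fold change of each gene at t2 over t1 (horizontal axis, with bars of 1 SE) in Col-0, pAP141 and pAP142; filled points were called at an adjusted p under 0.05 and open points were not, and dashed lines separate the complexes. PSAD-2 lies at 3.17 in Col-0, 3.41 in pAP141 and 3.10 in pAP142, and FNR2 is the only gene called on the negative side.

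The same comparison was made within each deletion line. In pAP141, 28 genes rose and 1 fell at t2 against t1, where 17.9% of all genes rose and 16.7% fell. In pAP142, 28 rose and 1 fell, where 13.1% of all genes rose and 13.9% fell. The genes that rose in all 3 lines were 24, the same genes as in Col-0. Without pAP141 t2 replicate 1, 20 of these 24 were called in pAP141, where PSBQ-1, PSBX, FD2 and ATPD no longer passed, and without pAP141 t2 replicate 2 or t1 replicate 3 all 24 were. FNR2 fell in all 3 lines. PETC, FNR1 and PDE334 were called in none, and PSAE-2, PSBR, PSBTN, PETE2 and ATPC1 in some lines only.

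In pAP141, PSAD-2 went from 68.3, 57.2, 139 and 82.0 TPM to 752 and 754 TPM, a log2 fold change of 3.41 ± 0.24 (edgeR adjusted p = 5.09e-09). Its evening replicate 3 stood above the other evening samples, and the morning samples stood above them all. PSAH-2 rose by 2.33 ± 0.21, PSAF by 1.69 ± 0.17, PSAD-1 by 1.65 ± 0.17, PETE1 by 1.74 ± 0.18, PGR5 by 1.92 ± 0.22 and PSBY by 1.48 ± 0.18 on the log2 scale. FNR2 went from 744, 715, 695 and 743 TPM to 204 and 197 TPM (-1.59 ± 0.17, edgeR adjusted p = 1.12e-06). The partners had 1.3 ± 0.19 (PSAH-1), 0.59 ± 0.20 (PETE2) and -0.28 ± 0.15 (FNR1), of which FNR1 was not called (edgeR adjusted p = 0.168). The next largest changes not called were those of PDE334 (0.28 ± 0.17) and PETC (0.17 ± 0.16). Without pAP141 t2 replicate 1 the number of genes that rose was 20, without pAP141 t2 replicate 2 it was 30, and without pAP141 t1 replicate 3 it was 26.

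In pAP142, PSAD-2 went from 133, 102 and 122 TPM to 832, 942 and 923 TPM (log2 fold change 3.10 ± 0.25, edgeR adjusted p = 4.38e-08). PSAH-2 rose by 2.09 ± 0.21, PSAF by 1.54 ± 0.17, PSAO by 1.88 ± 0.24, PSAE-1 by 1.74 ± 0.23, PETE1 by 1.42 ± 0.18 and PSAD-1 by 1.18 ± 0.16 on the log2 scale. FNR2 went from 803, 578 and 616 TPM to 247, 267 and 234 TPM (-1.25 ± 0.15, edgeR adjusted p = 6.41e-06). PSAE-2 was called in this line alone (0.68 ± 0.23), at 723, 545 and 501 TPM in the evening and 721, 934 and 836 TPM in the morning, and its samples overlap between the times. The largest changes not called were those of ATPC1 (0.32 ± 0.13), PDE334 (0.22 ± 0.16) and FNR1 (-0.20 ± 0.14). The partners PSAH-1 and PETE2 rose by 1.33 and 0.57.

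A difference between lines in the morning change was tested as an interaction in the same model. For pAP141, 0 of the 33 genes were called by edgeR, DESeq2 or limma and 0 had an unadjusted p under 0.05 in edgeR, where 0% of all genes were called. The differences in log2 fold change ran from -0.06 to 0.43, with the largest for PSBY (0.43 ± 0.24), PSAG (0.40 ± 0.25) and PSAF (0.38 ± 0.23). Their median of 0.24 became -0.24 without pAP141 t2 replicate 1, 0.56 without pAP141 t2 replicate 2 and 0.22 without pAP141 t1 replicate 3, with 0 genes of the set called in each. For pAP142, 0 were called by any of these tools and 0 had an unadjusted p under 0.05 in edgeR, where 0.211% of all genes were called. These differences ran from -0.22 to 0.58, with the largest for PSAE-2 (0.58 ± 0.31), PSAO (0.42 ± 0.31) and PSAE-1 (0.35 ± 0.31). The call of PSAE-2 in pAP142 and not in Col-0 is therefore not shown to be a difference between the lines.

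**Figure D3:**
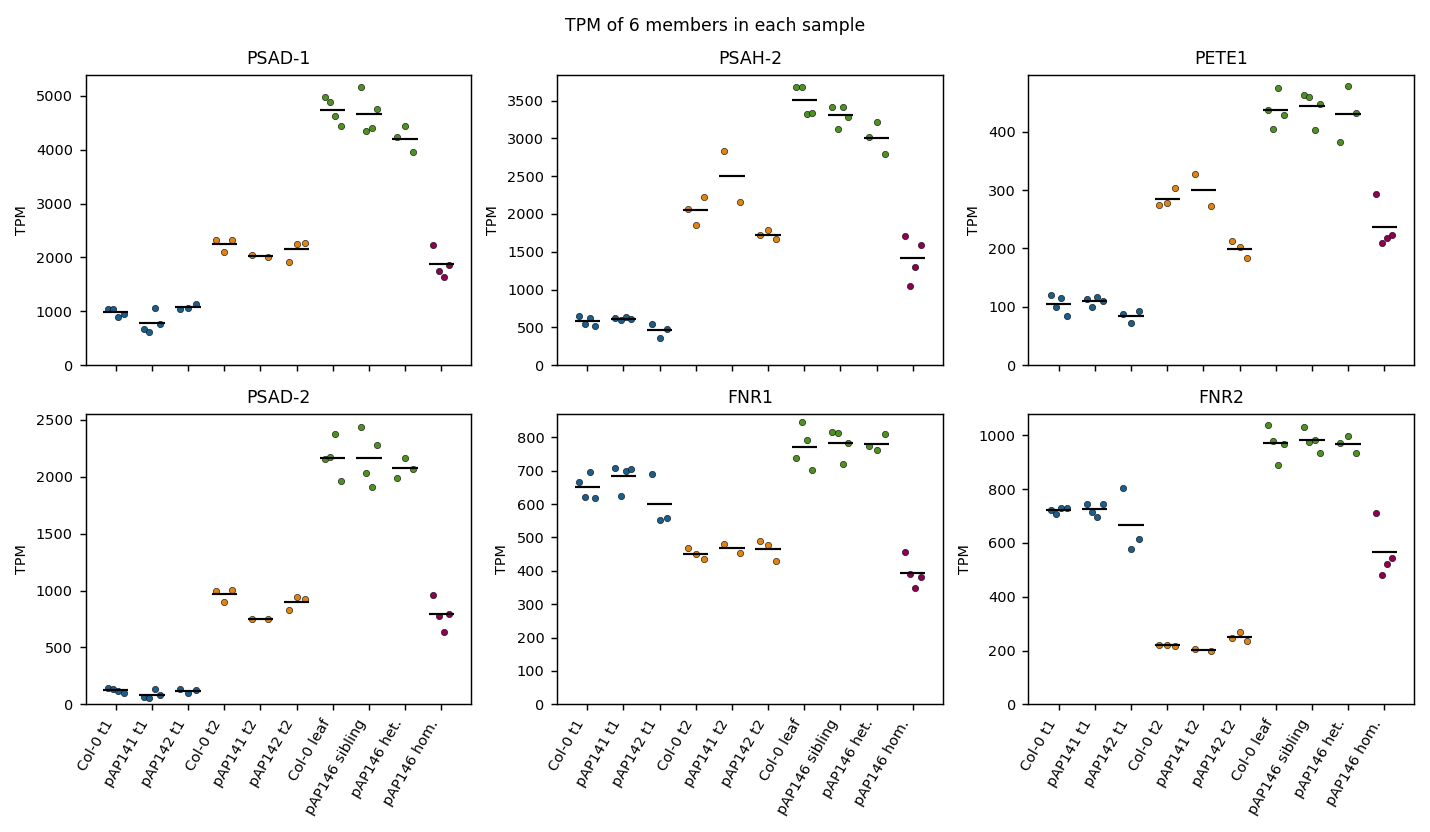
TPM of PSAD-1, PSAH-2, PETE1, PSAD-2, FNR1 and FNR2 (vertical axes) in each of the 34 samples; points are samples and bars are group means. FNR2 stands at 578 to 803 TPM in the evening samples and at 197 to 267 TPM in the morning samples, and PSAD-2 moves the other way.

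The copies of a pair shifted against each other. PSAD-2 supplied 11.1% of the summed PSAD TPM in Col-0 at t1 (9.90% to 11.9%, n = 4) and 30.1% at t2 (30.0% to 30.2%, n = 3). It went from 9.70% (8.46% to 11.5%, n = 4) to 27.2% (26.9% to 27.4%, n = 2) in pAP141 and from 9.93% to 29.5% in pAP142, and leaves of Col-0 stood at 31.4%. The step was thus of like size in each seedling line. PSAH-2 went from 41.1% to 56.7% of its pair in Col-0, with 59.4% in leaves. PSAE-2 went down, from 36.2% to 18.6%, with 19.5% in leaves. The time of day of the leaf samples was not given in the sources used here, so their shares are set beside those of seedlings as values only.

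Other pairs shifted in another manner. PSBQ-2 held 36.8% of its pair at t1, 46.5% at t2 and 60.9% in leaves, and PSBO2 held 22%, 25.3% and 19%. PETE1 held 2.53% of the plastocyanin TPM at t1, 5.55% at t2 and 6.28% in leaves, so PETE2 supplied nearly all of it in these groups. FNR2 held 52.7% of its pair at t1 and 32.7% at t2, and 55.7% in leaves. The ranges of all 7 pairs were apart between t1 and t2 in Col-0. In pAP142 the ranges of PSBO2 overlapped, at 22.8% to 24.8% and 23.5% to 25.1%. The shares are a description, with no test.

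**Figure D4:**
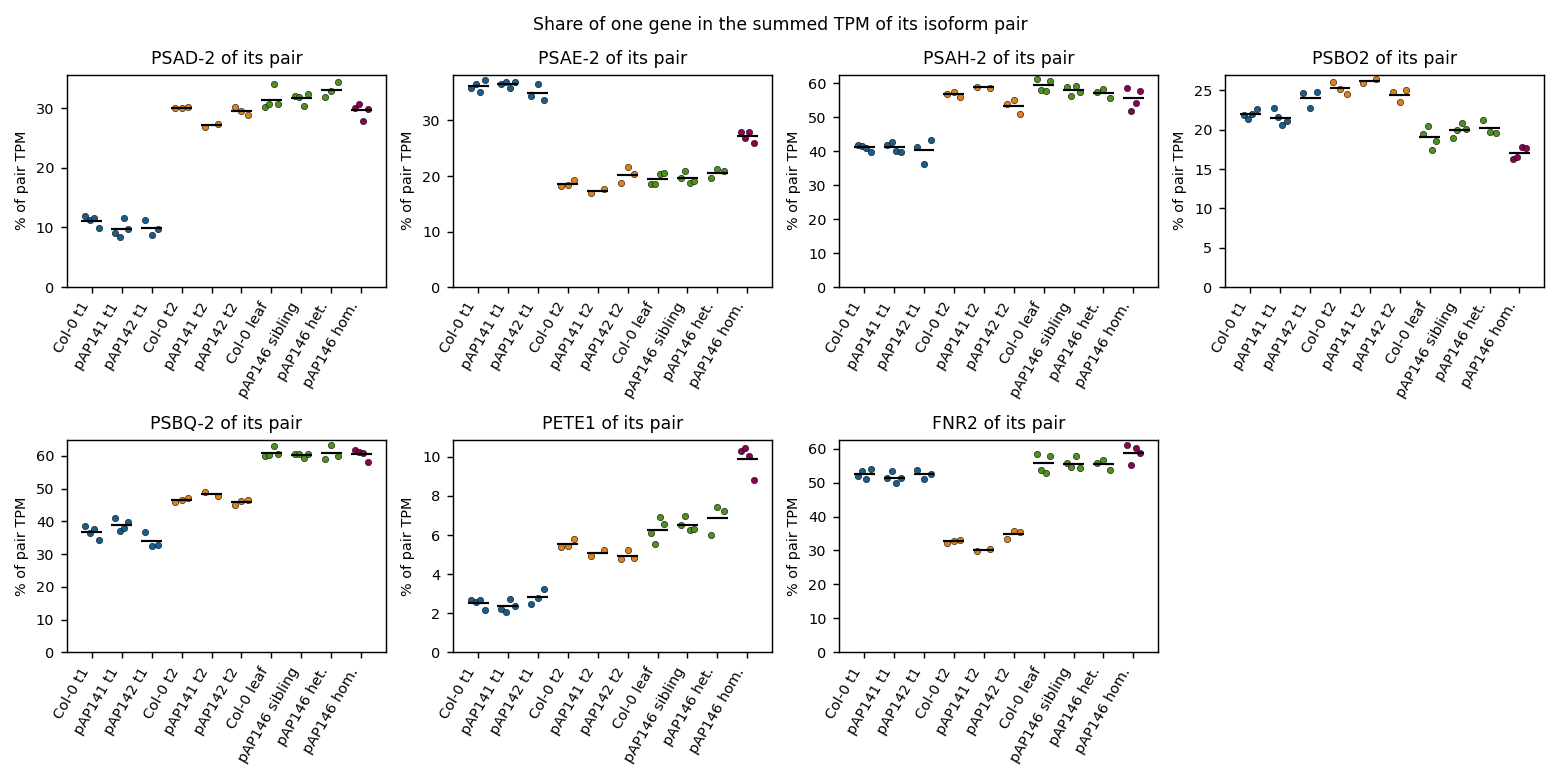
Share of 1 copy in the summed TPM of its pair, in percent (vertical axes), in each of the 34 samples; points are samples and bars are group means. In Col-0 PSAD-2 stands at 9.90% to 11.9% at t1 and at 30.0% to 30.2% at t2, and the mean share of FNR2 goes from 52.7% to 32.7%.

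Other genes of the photosynthetic apparatus were read from lists in the same Col-0 comparison. Of 20 light-harvesting antenna genes 18 rose, with a median log2 fold change of 2.56 against 0.97 for the set, led by LHCB2.1 (7.09), LHCB2.2 (7.25), LHCB2.3 (7.42) and LHCB1.1 (6.61), antenna proteins of photosystem II. In chlorophyll synthesis 10 of 16 genes rose and 2 fell, and those with the smallest adjusted p were CH1 (3.97), chlorophyll a oxygenase, HEMA1 (2.92), glutamyl-tRNA reductase, GUN4 (2.80) and CRD1 (2.77). GLK1 (0.44) and GLK2 (2.03), transcription factors that activate photosynthesis genes, both rose. Of 23 genes for assembly, repair and regulation 7 rose and 3 fell, with HCF244 (1.68), an assembly factor of photosystem II, and STN7 (1.44), the kinase of state transitions, first by adjusted p. Of 17 nuclear NDH subunits, which serve cyclic electron flow, 6 rose and 2 fell. Of 5 Rubisco small subunit and activase genes 2 rose, RCA (1.51) and RBCS3B (0.49).

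Minor and root-type isoforms, of carriers and of single photosystem II and ATP synthase subunits, were read as a list of 6. RFNR1, a root-type ferredoxin-NADP reductase, fell (-1.34 ± 0.16), as did FD3, a ferredoxin of non-green tissue (-0.50 ± 0.11). FD1, ATPC2 and PSBP-2 rose by 0.48, 0.34 and 0.67, and RFNR2 had 0.16 and did not pass. Of the plastid-encoded partners 2 of 29 tested rose, but plastid genes took only 0.02% to 0.09% of counts in these libraries of polyadenylated RNA. Of 16 root markers 1 fell and 0 rose, with a median log2 fold change of 0.25. Their summed level was lower in the morning in Col-0, at 1059 to 1245 TPM at t1 and 620.2 to 800.5 TPM at t2. It was also lower in pAP141, at 993 to 1169 and 614 to 826 TPM, and neither line's ranges overlap. In pAP142 the ranges of 492 to 667 and 441 to 732 TPM overlap. Of the senescence and low-energy markers 2 of 4 tested rose in Col-0, and their summed level was 187 to 463 TPM at t1 and 363 to 981 TPM at t2. The part of these markers in the morning values of the set was not tested.

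Each deletion line was then set against Col-0 of the same collection time, to ask whether the set differed in plants without the deleted stretch. In pAP141, 0 of the 33 genes were called by edgeR, DESeq2 or limma at t1 or t2. Over all genes edgeR called 0.0749% at t1 and 0.0983% at t2. At t1 the median log2 fold change was 0.28, 30 of 33 were positive and 7 had an unadjusted p under 0.05 in edgeR. At t2 the median was 0.50, 32 were positive and 25 had an unadjusted p under 0.05. The share of all genes at an unadjusted p under 0.05 is not given here, so these counts cannot be set against it. Genes read from the same libraries can move together, so a count of signs or of unadjusted p-values over the set is no test.

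The largest differences in pAP141 at t1 were those of PSAN (0.48 ± 0.20, edgeR adjusted p = 0.171), PSAK (0.42 ± 0.19, edgeR adjusted p = 0.195) and PSBR (0.41 ± 0.19, edgeR adjusted p = 0.201). By TPM alone 6 genes (PSAK, PSAN, PSBR, PSBW, PETC and FD2) were higher in every pAP141 sample than in every Col-0 sample at t1, where this held for 1.12% of the genes tested. PETC stood at 1583, 1557, 1575 and 1559 TPM in pAP141 and at 1494, 1326, 1436 and 1374 TPM in Col-0, groups that lie close but apart. At t2 the largest differences were those of PSAN (0.74 ± 0.25, edgeR adjusted p = 0.183), PSBW (0.66 ± 0.22, edgeR adjusted p = 0.176) and ATPD (0.61 ± 0.22, edgeR adjusted p = 0.194).

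These pAP141 values rest on single libraries. At t2 replicate 1 was above replicate 2 for most genes, with PSAK at 6264 and 4492 TPM in replicates 1 and 2 against 4039.9, 4201 and 4984 TPM in Col-0. Without pAP141 t2 replicate 2 the median log2 fold change of the set was 0.82, against 0.01 over all genes. The calls at t2 depended on which pAP141 library was kept. A fit without either library sets 1 pAP141 library against Col-0, with the spread taken from the other groups. Without pAP141 t1 replicate 3, 1 gene was called lower at t1, PSAD-2. It stood at 139 TPM in that replicate and at 57.2 to 82.0 TPM in the other samples, against 104 to 141 TPM in Col-0. PSAD-1 stood at 1069 TPM in that replicate and at 619.6 to 763 TPM in the others, against 889.9 to 1046 TPM in Col-0.

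In pAP142 at t1, 2 of the 33 genes were called lower than in Col-0, where 8.94% of all genes were called lower, and 0 were called higher. PSAG stood at 1329.7, 1074 and 1091 TPM against 1912, 1591, 1882 and 1578 TPM in Col-0 (log2 fold change -0.55 ± 0.17, edgeR adjusted p = 0.0290). PSAF stood at 1265, 1035 and 1013 TPM against 1721, 1533, 1701 and 1382 TPM in Col-0 (-0.48 ± 0.16, edgeR adjusted p = 0.0402). All pAP142 samples of both genes lie below all Col-0 samples. Over the set the median log2 fold change was -0.28 and 30 of 33 were negative. This count of signs is no test, since genes read from the same libraries can move together. The largest differences not called were those of PSAO (-0.53 ± 0.22), PSAE-2 (-0.50 ± 0.21) and PSBQ-2 (-0.46 ± 0.22). By TPM alone 9 genes were lower in every pAP142 sample, where this held for 19.3% of the genes tested, and PSAD-1 was higher in every sample, at 1048, 1055 and 1134 TPM.

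The 2 calls moved with single libraries. The number called lower was 8 without pAP142 t1 replicate 1, the highest of its group for most genes, 1 without Col-0 t1 replicate 2, and 0 without pAP142 t1 replicate 2 or 3 or without Col-0 t1 replicate 1 or 3. Over all genes, 3789 were called without pAP142 t1 replicate 1, of which 1792 were higher. Without pAP142 t1 replicate 2 they were 2353, of which 1343 were higher. Root markers were lower in the same comparison, with 11 of 16 called lower (median log2 fold change -1.27) and a summed level of 492 to 667 TPM in pAP142 against 1059 to 1245 TPM in Col-0, and 0 of the 16 were at 0 TPM in all samples of either group. Of 4 senescence and low-energy markers tested 3 were higher, with ASN1 at 2.99, and their summed level was 943 to 1072 TPM against 187 to 463 TPM. The part of these markers in the difference was not tested. In RNA of whole seedlings, fewer cells of a type and less RNA per cell cannot be told apart.

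At t2, 0 of the 33 genes were called between pAP142 and Col-0 by edgeR or DESeq2, where edgeR called 7.74% of all genes. Limma called PETE1 lower, and 1 gene of the set had an unadjusted p under 0.05 in edgeR. The median log2 fold change was -0.08. PETE1 had the largest difference, at 213, 202 and 184 TPM against 274, 278 and 303 TPM in Col-0 (-0.50 ± 0.17, edgeR adjusted p = 0.0903), followed by ATPD (-0.32 ± 0.20) and PETE2 (-0.31 ± 0.19). The PETE1 samples do not overlap. Of the root markers 4 of 16 were called lower at t2.

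The deletion lines were also set against each other. At t1, 19 genes were lower in pAP142 than in pAP141 and 0 were higher, where 14.3% of all genes were called lower, and the median log2 fold change was -0.51 against 0.00 over all genes. Photosystem I made up 10 of these, photosystem II 4, the carriers 3 and the ATP synthase 2. At t2, 15 were lower and 0 higher, where 8.85% of all genes were called lower, with a median of -0.61. Called lower at both times were 11 genes: PSAF, PSAG, PSAH-2, PSAK, PSBQ-1, PSBQ-2, PETE1, PETE2, FD2, ATPD and PDE334.

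At t1 PETE2 stood at 3469, 2529 and 2801 TPM in pAP142 and at 5038, 4644, 4148 and 4487 TPM in pAP141 (log2 fold change -0.79 ± 0.18, edgeR adjusted p = 0.00409). PSAK stood at 1832, 1286 and 1425 TPM against 2636, 2461, 2471 and 2443 TPM (-0.87 ± 0.21, edgeR adjusted p = 0.00531). The groups are apart for both genes. PSAE-2 had -0.91 ± 0.22, FD2 -0.63 ± 0.16, PSAO -0.84 ± 0.22, PSBQ-2 -0.82 ± 0.22, PSAE-1 -0.80 ± 0.21 and PSAL -0.69 ± 0.19, with edgeR adjusted p from 0.00552 for PSAE-2 to 0.0126 for PSAL. The partners PETE1 (-0.51) and PSBQ-1 (-0.54) were also called. PSBR (-0.53 ± 0.20), PSBP-1 (-0.49 ± 0.19) and PSBX (-0.39 ± 0.18) had the largest differences not called.

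At t2 FD2 stood at 3044, 2282 and 2868 TPM in pAP142 and at 4448 and 3627 TPM in pAP141, apart from each other (-0.83 ± 0.18, edgeR adjusted p = 0.00674). PETE1 had -0.84 ± 0.19 and ATPD -0.93 ± 0.22, with edgeR adjusted p of 0.00801 and 0.00899. PETE2 (-0.81 ± 0.21), PSAH-2 (-0.80 ± 0.22), ATPC1 (-0.53 ± 0.15), PSBY (-0.66 ± 0.19) and PSAF (-0.63 ± 0.18) followed. PSAN (-0.70 ± 0.25), PSAO (-0.69 ± 0.25) and PSAE-1 (-0.68 ± 0.25) had the largest differences not called, and PSAH-1, the partner of PSAH-2, was not called (-0.48 ± 0.21).

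These counts moved with single libraries. At t1 the number lower was 4 without pAP142 t1 replicate 2, 4 without replicate 3 and 27 without replicate 1, and 10 without pAP141 t1 replicate 1. Without pAP141 t1 replicate 3 it was 18, with PSAD-1 and PSAD-2 called higher. Over all genes, 3507 were called without pAP142 t1 replicate 2, of which 1807 were higher. Without pAP142 t1 replicate 3 they were 3704, of which 1983 were higher. At t2 the number lower was 7, 5 and 4 without pAP142 t2 replicates 1, 2 and 3, where 3524, 1766 and 2615 of all genes were called in either direction. The median log2 fold change of the set was -0.15 without pAP141 t2 replicate 1 and -0.94 without pAP141 t2 replicate 2. Where a pAP141 t2 library was left out, the other stood alone for its group and the spread came from the other groups. At t2 the number lower was 0 where the groups compared were fitted alone. Root markers were lower in the same comparisons, with 13 of 16 at t1 and 8 of 16 at t2, at a summed level of 993 to 1169 TPM in pAP141 at t1. Of 4 senescence and low-energy markers tested 3 were higher at t1 and 1 at t2, and their summed level was 943 to 1072 TPM in pAP142 against 209 to 314 TPM in pAP141 at t1 and 718 to 2138 against 569 to 586 TPM at t2. The part of both marker lists was not tested.

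The pAP146 comparison sets homozygous seedlings beside leaves of siblings without the deletion. All 33 genes were lower in the homozygous samples, where 27.8% of the 20833 genes tested were called lower, and the median log2 fold change was -2.01 against 0.07 over all genes. Against Col-0 leaves, 33 were lower too, where 28.2% of all genes were called lower, with a median of -2.05. These comparisons set whole delayed seedlings against leaves. The 2 evening clock genes checked summed to 47.4 to 56.0 TPM in homozygous seedlings and 24.9 to 34.3 TPM in siblings. The 2 morning clock genes summed to 11.1 to 17.6 TPM and 7.31 to 11.1 TPM. The part of collection time in the difference of the set was not tested.

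ATPD had the largest difference. It stood at 323, 279, 289 and 315 TPM in homozygous seedlings and at 1183, 1092, 1291 and 1223 TPM in siblings, a log2 fold change of -2.74 ± 0.14, 6.67-fold lower (edgeR adjusted p = 1.00e-08). PETC stood at 825, 648, 666 and 746 TPM against 1979, 1973, 1730.0 and 1845 TPM (-2.14 ± 0.13, edgeR adjusted p = 3.59e-08). PETE2 stood at 2554, 1795, 1944 and 2313 TPM against 6646, 6105, 6067 and 6655 TPM (-2.32 ± 0.15, edgeR adjusted p = 4.68e-08). In all 3 genes the groups are wide apart. The fold changes carry the TMM factors, which were 1.34 to 1.51 in homozygous and 0.810 to 0.933 in sibling samples. The TPM values do not carry them, so they lie closer together than the fold changes state.

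Next by adjusted p came PSAH-1 (-1.87 ± 0.12), PSBY (-2.03 ± 0.13), ATPC1 (-1.90 ± 0.13), PSBTN (-2.24 ± 0.15) and PDE334 (-1.90 ± 0.13). The partners had -1.66 ± 0.15 (PETE1) and -1.99 ± 0.16 (PSAH-2). The medians by complex were -2.04 for photosystem I, -2.03 for photosystem II, -1.74 for the carriers and -1.90 for the ATP synthase. The smallest differences were those of PSAE-2 (-1.52), FNR2 (-1.54), PSBR (-1.58), PETE1 (-1.66), PGR5 (-1.67) and FNR1 (-1.74). Among pairs, PETE1 supplied 9.91% of plastocyanin TPM in homozygous seedlings and 6.51% in siblings, and PSAE-2 supplied 27.1% of its pair against 19.6%.

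**Figure D5:**
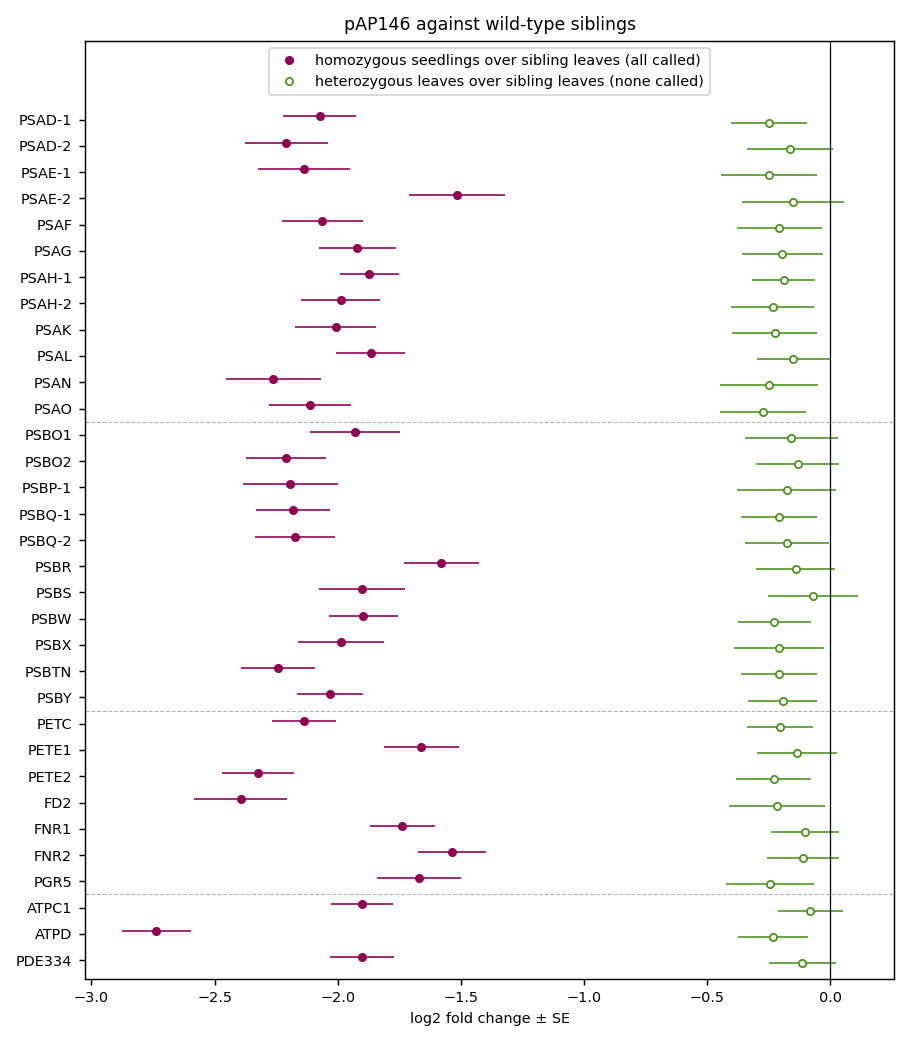
Log2 fold change of each gene (horizontal axis, with bars of 1 SE) in homozygous pAP146 seedlings and in heterozygous leaves, each over sibling leaves; filled points were called at an adjusted p under 0.05, open points were not, and dashed lines separate the complexes. The homozygous values lie between -2.74 and -1.52, and the heterozygous values between -0.27 and -0.07.

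The size of this difference moved with the scaling. With library totals in place of TMM factors the median over the set was -1.27 and over all genes 0.81, and with limma on log2(TPM + 1) they were -1.26 and 0.60. All 33 genes were called lower in every setting tried, each sample left out in turn included.

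Other photosynthesis lists were lower in homozygous seedlings too: all 20 antenna genes, 17 nuclear NDH subunits, 23 assembly genes, 16 chlorophyll synthesis genes and 5 Rubisco and activase genes, as well as GLK1 (-1.67) and GLK2 (-1.34). Of 26 plastid-encoded genes tested 16 were lower. Of the minor isoforms, FD1 (-1.63) and PSBP-2 (-2.83) were lower, and FD3 (1.2), RFNR2 (1.19), ATPC2 (0.85) and RFNR1 (0.35) were higher. Markers of other tissues were higher in the same samples. All 15 root markers tested were higher, with a median log2 fold change of 7.76, and the summed level of the 16 was 137 to 648 TPM in homozygous seedlings against 3.46 to 10.5 TPM in siblings, where 4 of them were at 0 TPM in all samples. All 4 meristem and division markers were higher, with STM at 5.15. Their levels were low, with a sum of 9.43 to 12.8 TPM in homozygous seedlings against 0.677 to 1.89 TPM in siblings. A mean under 1 TPM was found for 2 of them in homozygous seedlings and for 3 in siblings. The share of all genes called higher is not given here. The part of the root, meristem and division markers in the difference of the set was not tested.

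Heterozygous leaves can be set against sibling leaves with no difference of tissue. Here 0 of the 33 genes were called by edgeR, DESeq2 or limma and 0 had an unadjusted p under 0.05 in edgeR, where 0.0528% of all genes were called. JAZ11, in the deleted stretch, had a log2 fold change of -1.0 ± 0.14. All 33 values of the set were negative, a count of signs over genes read from the same libraries, with no test. The largest were those of PSAO (-0.27 ± 0.17), PSAE-1 (-0.25 ± 0.19) and PSAD-1 (-0.25 ± 0.15). By TPM alone 6 genes (PSAG, PSAH-1, PSBQ-1, PSBW, PETE2 and FD2) were lower in every heterozygous sample, where this held for 1.25% of the genes tested. FD2 stood at 5193, 5232 and 4788 TPM in heterozygous plants and at 5679, 5321, 5565 and 5438 TPM in siblings, groups that lie close but apart.

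Between siblings and Col-0 leaves 0 of the 33 genes were called by any of these tools and 0 had an unadjusted p under 0.05 in edgeR, where 0.0144% of all genes were called. The largest differences were those of FD2 (0.14 ± 0.18), PSBS (0.13 ± 0.17) and PSAH-2 (-0.06 ± 0.16).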

How the data were processed

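Total RNA of 34 samples in 10 groups was made into libraries with a stranded mRNA kit. The authors aligned reads with HISAT2 2.2.1 and quantified the Araport11 primary transcripts with Salmon 1.6.0, and the deposited tables give, per sample and gene, an estimated count and a TPM value, scaled by length and depth, for 27538 genes. The gene lengths in these tables are multiples of 3 for 99.9% of genes, so they are coding lengths. The deposited estimated counts were rounded to whole numbers and tested in R 4.3.3 with edgeR 4.0.16 (TMM factors, filterByExpr, robust quasi-likelihood F test, Benjamini-Hochberg adjustment over all genes). The time-of-day experiment (19 samples in 6 groups, 21356 genes tested) and the pAP146 experiment (15 samples in 4 groups, 20833 genes tested) were fitted separately. The threshold on the adjusted p was 0.05. Total estimated counts were 26640541 to 43851997 per sample.

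TPM values describe levels, with no test. DESeq2 1.42.0, limma 3.58.1 on log2(TPM + 1), other scalings, no filter, offsets from effective lengths, a fit of the compared groups alone, a stricter threshold of 0.01, the replicate number as a block and each sample left out in turn were tried as alternatives, and the fits were tested on simulated data. The block was not part of the design, since samples with the same number did not deviate together. For each comparison the text gives up to 8 called genes with the smallest adjusted p, both copies of a pair where either is among them, and up to 3 with the largest difference not called. The 5 highest and 5 lowest genes in Col-0 at t1 are named, and of each other list at most 4 genes by adjusted p. Genes given as single examples beside these were chosen after their values were seen. The members, lists and tests were chosen with earlier results of these data known. Gene starts and upstream sequence came from the RefSeq TAIR10.1 assembly, in which all 33 loci were matched. Upstream sequence of the PSBO pair is not reported here.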

Additional observations from a re-analysis of the deposited data

Results flagged for a closer look

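In 6 of 165 sets of 4 samples, a single sample stood far from the other 3, with a gap that took more of the whole range than the 95% critical value of Dixon's test allows. Chance flags about 1 in 20 such sets, so this is no more than chance gives. In homozygous pAP146, replicate 1 was high for PSAO (4744 TPM, the next at 3515 TPM) and for PETE1 (294 TPM, the next at 224 TPM). In pAP141 at t1, replicate 1 was high for PSAK (2636 TPM, the next at 2471 TPM), and replicate 2 was low for FNR1 (625 TPM, the next at 700.0 TPM) and PDE334 (1334 TPM, the next at 1388 TPM). In Col-0 leaves, replicate 2 was high for ATPC1 (766 TPM, the next at 628 TPM).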

How the results depend on the processing

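No gene of the set changed direction across a call in any setting tried. Over the settings that leave out no sample, 4301 single-gene results kept their side of the threshold, 61 passed it newly and 93 no longer did, and with a sample left out these were 3551, 64 and 147. In pAP142 against Col-0 at t1, where 2 genes were lower, the number was 4 with library totals (PSAO and PETE2 added), 16 with limma, 1 with the compared groups alone and 0 at an adjusted p under 0.01. At t2, where 0 were, it was 1 with library totals and 1 with limma (PETE1). Over all genes limma called 3618 at t1, of which 1758 were higher. In pAP142 against pAP141 at t1, 1 gene was higher with library totals and with limma (PSAD-1) in place of 0, and 5 in place of 19 were lower at an adjusted p under 0.01. At t2 the 15 lower became 7 with library totals, 0 with the compared groups alone and 3 at an adjusted p under 0.01, and limma called 1 higher (FNR2). From evening to morning, the number that fell became 2 in Col-0, pAP141 and pAP142 with library totals and with limma, and 2 in Col-0 with the compared groups alone, with FNR1 added. The causes were not tested. DESeq2 called 1086 and 449 genes in pAP141 against Col-0 at t1 and t2, against 16 and 21 in edgeR, with 0 of the set.

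With each sample left out in turn, the number lower in pAP141 against Col-0 was 0 to 1 at t1. At t2 the calls depended on which pAP141 library was kept. In pAP142 against Col-0 at t1 the number lower was 0 to 8. In pAP142 against pAP141 it was 4 to 27 at t1, with 0 to 2 higher, and 0 to 28 at t2. From evening to morning 21 to 25 rose in Col-0 with 1 falling, 20 to 30 rose in pAP141 with 1 to 2 falling, and 20 to 29 rose in pAP142 with 1 falling.

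With the replicate number as a block, 24 genes rose and 2 fell in Col-0 from evening to morning, 26 rose in pAP141 and 29 in pAP142, and 25 at t1 and 13 at t2 were lower in pAP142 than in pAP141. Samples with the same number had a mean correlation of deviations of 0.021 over the seedling pools and -0.032 over the pAP146 samples, so they share only a number.

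In TMM-normalized CPM, which has no length scaling and carries the TMM factors, the log2 ratio of the summed level at t2 to t1 in Col-0, pAP141 and pAP142 was 0.81, 0.99 and 0.98 for the set, in place of 0.66, 0.75 and 0.83 in TPM. It was 1.27, 1.48 and 1.54 for photosystem I, 0.83, 1.01 and 1.0 for photosystem II and 0.28, 0.56 and 0.41 for the ATP synthase. The ratio of homozygous pAP146 to siblings was -2.03 for the set, in place of -1.27, and -2.04, -2.0, -2.08 and -2.13 for photosystem I, photosystem II, the carriers and the ATP synthase. The TMM factors were 1.34 to 1.51 in homozygous and 0.810 to 0.933 in sibling samples.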
